A study of Mus musculus with 12 samples.

Results

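The mouse genome names a large set of genes Zfp followed by a number, most of which encode proteins built from C2H2 zinc fingers. The genes described here were the protein-coding genes with such a name in 3 deposited tables of differentially expressed genes, and 130 of the 10289 genes in the tables met this rule. GENCODE annotates 365 protein-coding genes of this kind, so 235 were in no table.

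The study used C2C12, a mouse myoblast line that fuses into myotubes when serum is lowered. All groups were lentivirus-transduced, puromycin-selected cells carrying a vector with a CMV promoter: GFP cells in growth medium (GM, day 0), GFP cells at day 4 of differentiation medium (D4), METTL3-overexpressing cells in GM and METTL14-overexpressing cells in GM, with 2 RNA-seq libraries each. METTL3 and METTL14 form the methyltransferase that places m6A on mRNA. For METTL14 cells the sample titles give day 0 while another label gives day 4, and the titles were followed. Each table sets one group against the GFP cells in GM, so the 3 comparisons shared the same control libraries. Whether libraries of a group came from separate cultures is not given in the sources used here.

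A C2H2 finger folds around a zinc ion held by a pair of cysteines and a pair of histidines, and fingers in a row usually read a stretch of DNA. Many of these proteins also carry a KRAB box, which binds the co-repressor TRIM28 and through it the histone methyltransferase SETDB1, a route best known for silencing retroelements. Others act without KRAB, as promoter factors, chromatin proteins or RNA-binding proteins.

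Consecutive fingers are joined by a short conserved linker. The linker and its flanking histidine and aromatic residue were found 504 times in 93 of the 130 listed proteins. Of 498 copies within a single exon, 244 different DNA sequences encoded it, and the 3 most frequent made up 14.7% of copies. They are shown because they had the most copies, which lay in 10, 6 and 6 genes. Each is given at a single GRCm38 site, read 5′ to 3′ on the plus strand. The linker codons are in capitals, between the last histidine codon of a finger and the first aromatic codon of the next.
Zfp160, chr17:21026783-21026803, found 32 times in 10 genes: catACAGGAGAGAAACCTtac
Zfp930, chr8:69228612-69228632, found 23 times in 6 genes: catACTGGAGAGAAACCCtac
Zfp386, chr12:116060200-116060220, found 18 times in 6 genes: catACTGGAGAGAAACCTtac

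The values available per gene were the authors' mean normalized count and the presence of the gene in a table. The mean is one number pooled over all libraries of the authors' fit. It is therefore not the level in D4 cells or in any other single group. No value per library was used, so the values below carry no SD, no direction of change and no test. Depth per library was not examined here, though the paper's supplement holds an overview of the RNA-seq reads. The mean was the same in every table that held a gene, to within a relative difference of 4.8e-10 over 1746 genes in more than 1 table. Muscle markers were present: Myod1 had a mean of 1845, Des 24157, Myog 2124, Myh3 40372 and Ckm 3187 normalized counts. The adipocyte gene Adipoq, the endothelial gene Pecam1 and the blood cell gene Ptprc were in no table and so have no level here, which leaves the presence of other cell types unchecked. The progenitor gene Cd34 was in all 3 tables with a mean of 1418. Mettl3 was in the METTL3 table only, and Mettl14 was in the METTL14 and D4 against GM tables.

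The D4 against GM table listed 121 of the 365 Zfp genes, or 33.2%, beside 40.1% of all 21951 annotated protein-coding genes. The METTL3 table listed 14, or 3.84%, beside 7.80%. The METTL14 table listed 6, or 1.64%, beside 4.91%. The share of Zfp genes was thus below that of all genes in each table. Among other zinc finger families, D4 against GM listed 18 of 35 Zbtb genes, which pair fingers with a BTB domain, and 13 of 21 Zscan and Zkscan genes, which carry a SCAN domain. The METTL3 table listed 0 and 1 genes of these families, and the METTL14 table listed none. Genes that were never detected count in each denominator, and their number is not known here.

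**Figure D1:**
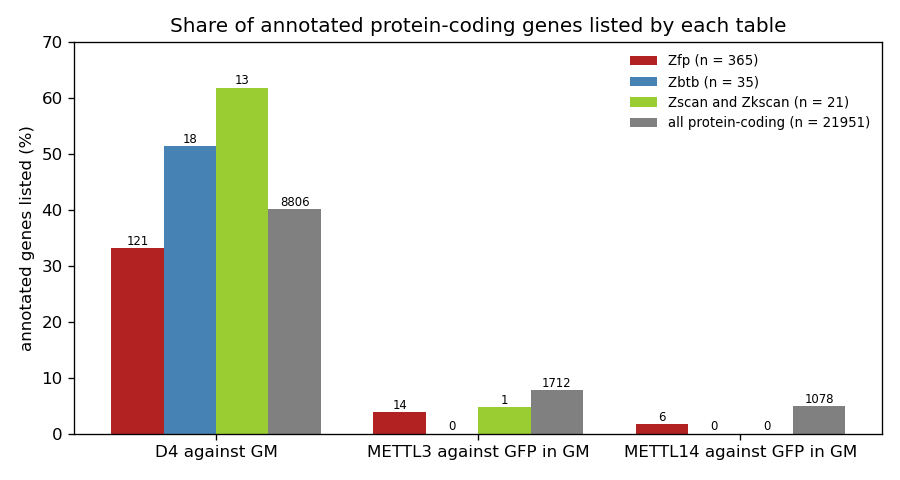
Bars give the percent of annotated protein-coding genes that each table lists, for Zfp genes and 3 comparison sets, with the number listed above each bar. The Zfp bar stands below the bar of all protein-coding genes in each of the 3 tables, at 33.2% beside 40.1% for D4 against GM.

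Of the 130 genes, 114 were only in the D4 table, 7 only in the METTL3 table and 2 only in the METTL14 table. Another 3 were in the D4 and METTL3 tables, and 4 were in all 3 tables. Over all 10289 genes of any type in the tables, of which 9266 were protein-coding, 1746 were in more than 1 table. Genes in a single table or in all 3 were not counted over all genes. Whether the Zfp numbers are usual therefore cannot be told here. The comparisons shared their control libraries, and the overlap was not tested.

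The genes in all 3 tables were Zfp703, Zfp330, Zfp697 and Zfp704. Zfp703 (chr8:26977325-26981461), a co-repressor of the NET family, had a mean of 860 normalized counts and 254 per kb of exon. Zfp330 (chr8:82763607-82774160) had a mean of 607 and 107 per kb. Neither protein matched the C2H2 pattern. Zfp697 (chr3:98382461-98753812) had a mean of 583 and 11 finger matches, and Zfp704 (chr3:9427020-9610085) had a mean of 409 and 1 match. All 4 means lay above the median of 270 of the Zfp genes in the D4 table. Per kb of exon, Zfp697 had 70.5 and Zfp704 had 26.8, beside a median of 46.5 for the Zfp genes in that table. Zfp704 thus lay below the median once length was taken into account, and the others above it.

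Zfp568, Zfp626 and Zfp532 were in the D4 and METTL3 tables. Zfp568 (chr7:29983955-30028282), a KRAB protein that represses a placental Igf2 transcript, had the highest mean of the METTL3 list at 1007. Zfp626 (chr7:27807196-27822916), also with a KRAB match, had a mean of 201, and Zfp532, without one, of 157.

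Of the genes in the METTL3 table alone, Zfp52 (chr17:21535539-21562601) had a mean of 563 and Zfp358 (chr8:3493138-3497208) of 505. Zfp395 (chr14:65358389-65398930) had a mean of 258, Zfp444 (chr7:6172226-6193811) of 207 and Zfp580 (chr7:5051538-5053723) of 131. Zfp422 (chr6:116624016-116628999) had a mean of 57.1 and Zfp709 (chr8:71882019-71895727) of 19.6. The last 2 were the only METTL3 members under a mean of 100, and Zfp52 and Zfp709 alone among these 7 had a KRAB match.

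The METTL14 table alone held Zfp979 and Zfp521. Zfp979 (chr4:147611937-147642513), a KRAB protein, had a mean of 7.38. Zfp521, a regulator of stem and progenitor cells with 27 finger matches, had a mean of 4.54, the lowest of all 130 genes. A call on a gene with so low a pooled mean rests on few reads, and how these spread over the libraries is not known here.

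**Figure D2:**
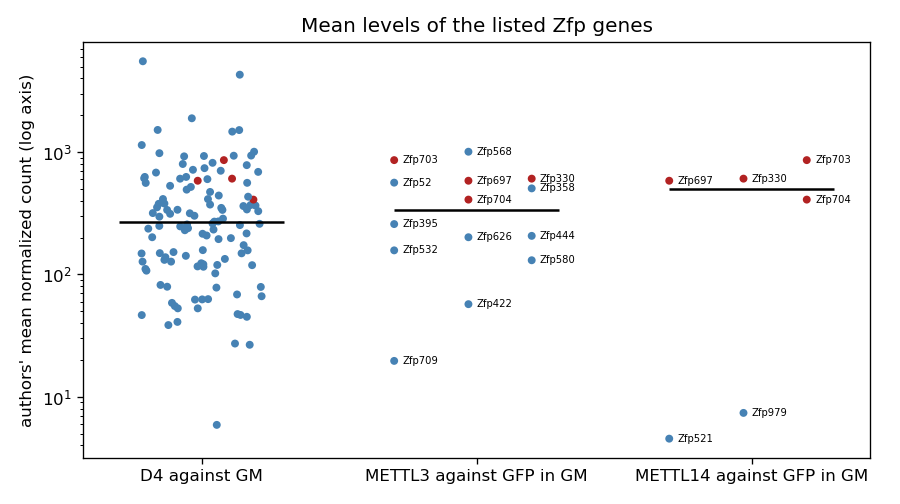
Points are the Zfp genes of each table, the vertical log axis is the authors' mean normalized count, black lines are medians and red points are the 4 genes in all 3 tables; horizontal position within a column has no meaning. Medians are 270, 333 and 496, and Zfp979 and Zfp521 lie far below the other METTL14 members.

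In the D4 table the means of the Zfp genes ran from 5.89 to 5529, with quartiles of 123 and 560. The median per kb of exon was 46.5, beside 117 for all 8812 protein-coding genes of that table with a length. Per kb medians were 62.5 beside 127 in the METTL3 table and 48.6 beside 113 in the METTL14 table. Listed Zfp genes therefore had lower mean levels per length than listed genes in general, and 22 of the 121 had a mean under 100.

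The highest mean was that of Zfp106, an RNA-binding protein needed for motor neuron and muscle upkeep, at 5529 normalized counts and 530 per kb. Zfp207, known as BUGZ, which acts at kinetochores, had 4295 and 645 per kb. Zfp706 had 1890, and Zfp598, the ubiquitin ligase that marks collided ribosomes, had 1518. Per kb, Zfp207 stood first and Zfp106 second, so their order changed with the length correction.

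The rest of the 10 highest followed. Zfp664 had a mean of 1514 and Zfp445, a KRAB protein that protects imprinted methylation, of 1470. Zfp148, a GC-box factor, had 1142 and Zfp568 had 1007. Zfp236, with 30 finger matches, had 980, and Zfp326, which couples transcription with splicing, had 937. Per kb, Zfp664 and Zfp445 were nearly level at 193 and 198.

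The 5 lowest of the D4 table were Zfp467 at 5.89, Zfp808 at 26.6, Zfp112 at 27.2, Zfp964 at 38.5 and Zfp69 at 40.9 normalized counts. Zfp467, which promotes adipocyte over osteoblast fate, was more than 4 times lower than the next gene.

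By role, the counts in the D4 table are to be read against the 33.2% of Zfp genes and 40.1% of all protein-coding genes that it listed, and with 5 to 10 genes a list they show nothing particular to a role. It listed 5 of 10 genes for RNA handling, ribosomes and cell division, namely Zfp106, Zfp207, Zfp326, Zfp598 and Zfp830. Zfp36, which speeds decay of AU-rich mRNAs, was in no table. Of 7 genes that silence retroelements or imprinted genes, 4 were listed at D4, beside the same shares: Zfp445, Zfp568, Zfp57 with a mean of 270 and Zfp932 with a mean of 148. Zfp809, Zfp708 and Zfp819 were in no table.

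Of 7 genes grouped here as mesenchymal and adipocyte regulators, Zfp467, Zfp503 and Zfp703 were in the D4 table. Placing Zfp503 and the NET family co-repressor Zfp703 in this group was a choice, and that role was not checked. Zfp703 was also in the METTL3 and METTL14 tables, and Zfp521 was in that of METTL14 alone. The shares of all Zfp genes listed were 33.2% at D4, 3.84% for METTL3 and 1.64% for METTL14. Zfp503, a relative of Zfp703, had a mean of 934. Zfp423, Zfp516 and Zfp217 were in no table. Of 7 promoter and chromatin factors, 5 were in the D4 table, beside the same 33.2% of Zfp genes: Zfp148, Zfp131 at 817, Zfp281 at 717, Zfp335 at 601 and Zfp64 at 413. Of 5 pluripotency and neural genes, only Zfp365 was listed, with a mean of 799.

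The KRAB co-repressor machinery, which is not part of the Zfp family, had 18 of 21 genes in the D4 table, beside 40.1% of all protein-coding genes. This list was chosen with earlier results of these data known, and the 40.1% also counts genes that were never detected. No enrichment should be read from the difference, which was not tested. Trim28, the KRAB-binding scaffold, had a mean of 4904 and was in the D4 and METTL3 tables, as was Morc2a at 2141. Setdb1, Atf7ip and Cbx5 were in no table, and the METTL14 table, with 4.91% of all protein-coding genes, held none of the 21. The METTL3 table, with 7.80%, held 2 of them.

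A KRAB A box match was found in 57 of the 130 listed proteins, or 43.8%, and in 133 of the 235 proteins of genes in no table, or 56.6%. This order rests on the pattern used. The pattern was widened after these shares had been seen under a narrower first pattern, because the first one missed well known KRAB proteins such as Zfp57 and Zfp445. Under that first pattern the order was the opposite, with 33.1% of listed and 29.8% of unlisted proteins matching. The other 4 of the 5 patterns tried gave listed proteins the lower share. No direction should be read from the KRAB share alone. None of 35 Zbtb proteins matched any of the 5 patterns.

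**Figure D3:**
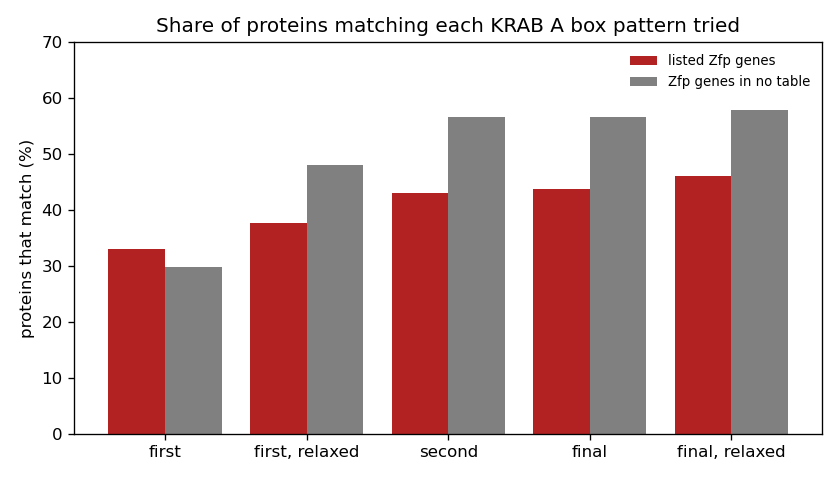
Bars give the percent of proteins that match each of the 5 KRAB A box patterns tried, for listed Zfp genes (n = 130) and Zfp genes in no table (n = 235). The first pattern puts listed genes higher, at 33.1% beside 29.8%, and the final one puts them lower, at 43.8% beside 56.6%.

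Levels differed between listed genes with and without a KRAB match. The median per kb of exon was 34.5 for the 57 with a match and 77.5 for the 73 without. This order held under all 5 patterns, with medians of 33.8 to 34.7 against 66.9 to 78.8. Under the final pattern, 190 of all 365 annotated Zfp proteins matched. By table, KRAB genes under that pattern made up 54 of 121 at D4, 4 of 14 for METTL3 and 1 of 6 for METTL14. Counts by table were not made under the other patterns, and 14 and 6 genes are too few to read a difference from.

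The number of C2H2 finger matches had a median of 10 in listed and 11 in unlisted proteins, and ran from 0 to 30 in listed ones. Zfp236 had the most with 30, followed by Zfp521 and Zfp646 with 27. No match was found in 6 listed proteins, among them Zfp326, Zfp330 and Zfp365. Genes with 1 to 5 matches were listed most often, at 48.6%, and those with 6 to 10 matches least often, at 28.4%. Across the 130 listed genes, finger number and mean level per kb had a Spearman rho of -0.34; these genes share libraries, and many are related in sequence.

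**Figure D4:**
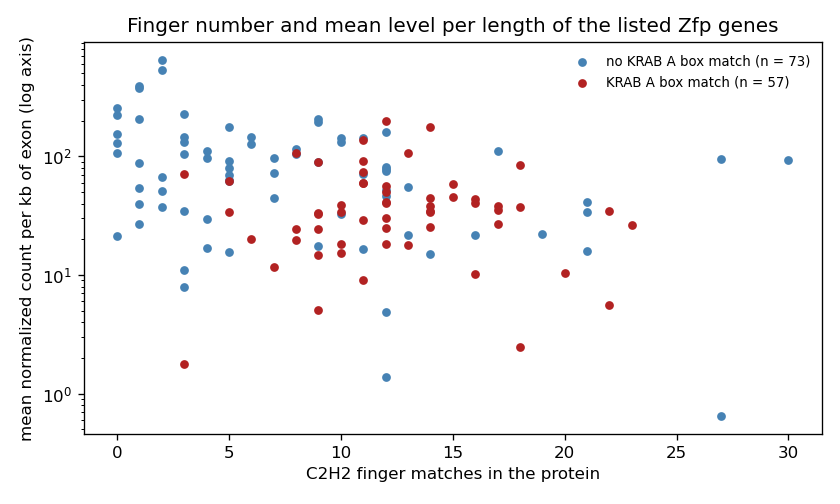
Each point is a listed Zfp gene, with C2H2 finger matches on the horizontal axis and mean normalized count per kb of exon on the vertical log axis; colour marks a KRAB A box match. Genes with a match have a median of 34.5 per kb and those without 77.5.

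Many Zfp genes, though not all, lie near other Zfp genes. Another annotated Zfp gene started within 200 kb of 53.1% of listed and 68.9% of unlisted genes. Over all 365 Zfp genes, 35.6% were listed, and the counts in clusters of 5 or more genes are given beside that share with no test. The largest, 19 genes at chr13:67038596-67827002, had 2 listed, Zfp738 and Zfp748. The next, 18 genes at chr17:21383748-22456689, had 7, and 15 genes at chr7:29768552-30169750 also had 7. A cluster of 10 at chr4:146971976-147848366 had 1, Zfp979, and another of 10 at chr7:24081924-24316666 had 3. Of 5 genes each, 3 were listed in the clusters at chr7:12804977-12985714, chr7:27731389-28014115 and chr8:69610857-69791178. In the other 7 clusters, of 5 to 8 genes, between 1 and 4 were listed.

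**Figure D5:**
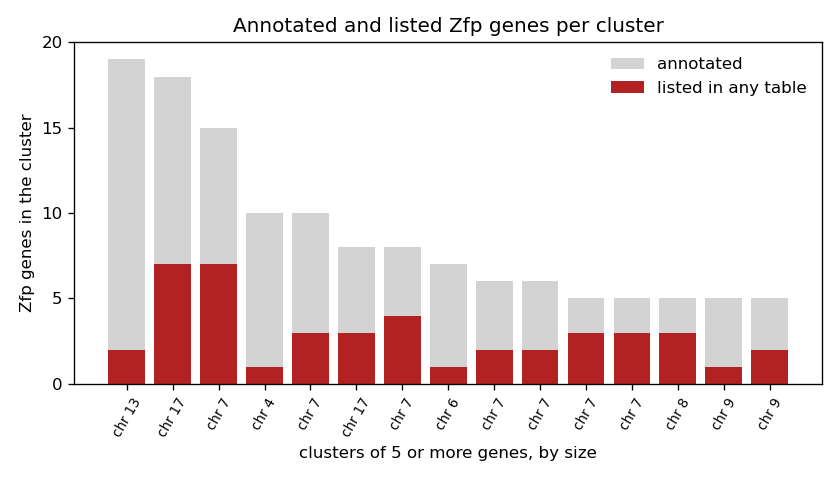
Grey bars give annotated Zfp genes in each cluster of 5 or more, ordered by size and named by chromosome, and red bars the genes listed in any table. The chromosome 13 cluster has 2 of 19 listed and the first chromosome 17 cluster 7 of 18.

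Near-identical copies limit what read counting can assign. For each gene the share of 96-base exon words that recur elsewhere in the genome was counted. Of the 36 genes with over 20% recurring words, 4 were listed, Zfp617, Zfp979, Zfp932 and Zfp934, against 83 of the 211 genes with none. In the chromosome 4 cluster the median share was 45.5%, and 8 of its 10 genes were over 20%. The chromosome 13 cluster had a median of 0.788% and no gene over 20%. Counts of Zfp617, Zfp979, Zfp932 and Zfp934 should be read with care for this reason. How the authors' counting treated reads from recurring stretches was not examined. The part of such sharing in which genes were listed was not tested.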

How the data were processed

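Total RNA from C2C12 cells was sequenced in 8 RNA-seq libraries, 2 per group; 4 MeRIP libraries were not analysed here. The authors aligned reads to GRCm38 with hisat2, counted genes with featureCounts on an Ensembl annotation and ran DESeq2, keeping genes at an FDR of at most 0.05; program versions are not given in the sources used here. The deposited mean normalized count is a signal value, a mean over libraries of the counts that the authors normalized with DESeq2. Columns of the authors' fold changes, standard errors, test statistics and p-values were not used. Members and lists were chosen with earlier results of these data known.

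Genes were matched by identifier to GENCODE M21 on GRCm38, and all 130 matched. Levels per kb divide the mean by the union of exons. The longest coding sequence of each gene was read from the RefSeq GRCm38 genome and translated. C2H2 and KRAB A box matches were counted by pattern. The counting code was run on 200 simulated proteins built to hold or lack these same patterns, and 100% were counted right. That result does not show how well the patterns find fingers or KRAB boxes in real proteins. In all, 5 KRAB patterns were tried, and the final one was adopted after the listed and unlisted shares under the first had been seen; every pattern's result is given. Recurring exon words, the Zbtb, Zscan and Zkscan families and clusters were also added after values were seen. Named genes were those in the METTL3 or METTL14 tables, the 10 highest and 5 lowest pooled means among D4 table genes, and the role lists. The 3 proteins with most and fewest fingers were also named by rule. Genes of clusters and recurring words were named outside this rule. Python 3.11.15, pandas 2.3.3, numpy 2.4.6, scipy 1.17.1 and matplotlib 3.10.9 were used. The alternatives were other name patterns, gene types, count minimums, denominators, sequence patterns, distances and word lengths.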

Additional observations from a re-analysis of the deposited data

How the results depend on the processing

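No paired analysis was possible because no values per library were used, and leaving out replicates could not be run for the same reason. Of 34 alternatives, 28 left the value within its limits, 5 moved it and 1 reversed it. For counts the limits were a fixed factor of the value, and for shares and medians a 95% interval over genes. Such intervals treat related genes as separate draws, so staying within them is a loose check. The reversal concerned the KRAB share of listed minus unlisted Zfp genes, which was -12.7 percentage points with the final pattern and 3.29 with the first pattern tried; the first pattern requires more fixed residues and matched 113 rather than 190 of the 365 proteins. The percent of listed proteins with a match was 33.1% under that first pattern. Both alternatives were chosen after seeing the data. With only the 130 listed genes as the denominator, the share listed became 93.1% for D4, 10.8% for METTL3 and 4.62% for METTL14, which follows from the smaller denominator. With neighbours counted within 1000 kb, 63.8% of listed genes had one. Means over libraries hide the spread between them, so no value here has a replicate error.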
